A study of Mus musculus with 4 samples.

Results

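Interferon-stimulated genes other than the Oas family were followed in mouse bone marrow preproB cells after deletion of an enhancer of Cebpa. The set was a list of 38 known interferon targets given by symbol. The rule uses no measured value, but the genes were chosen with earlier results of these data known. Of these, 37 had a probe under that name, all 37 entered the test, and the arrays gave 19391 tested genes in all. Ifi205 was not analysed here.

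Type I interferons bind a receptor of IFNAR1 and IFNAR2, whose kinases JAK1 and TYK2 phosphorylate STAT proteins. STAT2 joins IRF9 in the complex ISGF3, which binds the interferon-stimulated response element (ISRE) in the promoters of its target genes. Interferon-gamma acts at a different element, the gamma-activated site (GAS). The target genes encode proteins that block viral replication, sense foreign RNA and DNA, tag proteins with the ubiquitin-like ISG15 and restrain the signal itself, and blood cell precursors carry many of these transcripts at a low level without infection.

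RNA from 4 samples was hybridised to 1-colour Agilent arrays, 2 per group. All mice were C57BL/6, carried a floxed copy of the enhancer at +37 kb of Cebpa on both alleles, and had been injected with pIpC 3 times, with marrow taken 5 weeks after. pIpC is a double-stranded RNA analogue that itself induces interferon, so both groups had this exposure. The control group, whose labels give no deletion, had no Cre. The EnhDel group also carried Mx1-Cre, a recombinase driven by the interferon-responsive Mx1 promoter, so that loss of the enhancer and presence of Cre cannot be told apart. Cells had been sorted as lineage-negative, B220+, CD43+, BP1- and CD24-. Control replicate 1 came from a mouse of 26 weeks and the other samples from mice of 24 weeks. The tests below know no error beyond the spread among these 4 samples, which may in part be technical.

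Each array had 59.6% to 64.9% of 39429 probes well above background and no saturated spot. Levels are given as log2 signal minus the log2 of that array's 75th percentile, so that a level below 0 is dimmer than that percentile. The number of arrays limits the precision. Cebpa itself was at 0.41 and -0.21 on the control arrays and at -2.85 and -1.77 on the EnhDel arrays, a difference of -2.41 ± 0.44 (SE; limma, adjusted p = 0.237). The sex-linked genes went against some labels. Xist, the RNA of the inactive X chromosome, was well above background on EnhDel replicate 2 alone (signals of 597 and 1551 on its 2 probes) although all samples but control replicate 1 were labelled male. Y-linked Ddx3y had a signal of 1560 on that array against 3116 to 3624 on the others. Control replicate 1, labelled female, had no Xist signal above background. Results are therefore also given without EnhDel replicate 2. Over all genes the EnhDel arrays lay further apart (SD of their log2 difference 0.611) than the control arrays (0.333).

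The sequence that ISGF3 binds was looked for first, since that complex is the textbook regulator of most genes of the set. RefSeq promoters of build GRCm38.p6, from 250 bases before to 50 bases after the start, were matched by symbol to 25 of the 38 genes. The core of the ISRE, taken as GAAA, any pair of bases and GAAA again on either strand, was present in 17 of those 25 genes (68%) and in 3.99% of the 27025 genes of the whole promoter table. The GAS core, TTCNNNGAA on either strand, was present in 5 of the 25 (20%) and in 9.55% of all genes. No match to either motif shared bases with a match to the other in these promoters. The windows below are from 8 of the genes, read 5′ to 3′ on the gene's own strand, and were chosen to show the element in effectors, the ISG15 tag, GTPases, a chemokine and a signalling factor. Capitals mark the core match, which reads as given above on the gene's strand or as its reverse complement, TTTC, a pair of bases and TTTC.
Ifit1, chr19:34640775-34640804, plus strand: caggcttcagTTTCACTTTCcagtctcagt
Ifit1, second match, chr19:34640794-34640823, plus strand: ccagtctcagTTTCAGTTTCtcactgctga
Ifit3, chr19:34583363-34583392, plus strand: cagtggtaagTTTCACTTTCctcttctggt
Rsad2, chr12:26456553-26456582, minus strand: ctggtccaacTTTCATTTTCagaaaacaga
Isg15, chr4:156200871-156200900, minus strand: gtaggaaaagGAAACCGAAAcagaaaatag
Igtp, chr11:58199512-58199541, plus strand: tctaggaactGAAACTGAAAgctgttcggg
Gbp3, chr3:142559989-142560018, plus strand: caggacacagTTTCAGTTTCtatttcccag
Cxcl10, chr5:92349083-92349112, minus strand: tcacgctttgGAAAGTGAAActtacctcac
Stat2, chr10:128270266-128270295, plus strand: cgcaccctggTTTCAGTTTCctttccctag

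In the Ifit1 promoter the matches began 104 and 85 bases before the start, and the first carries the same 10 bases as the Ifit3 match shown, which began 156 bases before its start. A further Ifit3 match, not shown, began at 122 bases and carries the same 10 bases as the second Ifit1 match. The Isg15 match shown began 72 bases before the start and is the middle of 3 that overlap. The Igtp match began 34 bases before the start and the Gbp3 match shown 45, while those of Cxcl10 and Stat2 lay further out, at 213 and 222 bases. The Gbp3 match shown overlaps a further one that began at 39 bases. The presence of these letters is a description of the window and not a measured binding site.

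Almost every gene of the set was higher on the EnhDel arrays, by a modest amount. Over the 37 genes the median log2 difference, EnhDel minus control, was 0.65, against 0.07 over all genes tested. It was above 0 in 36 of the 37, and in 59.8% of all genes. When arrays were scaled on their median it was above 0 in 33, where Samhd1 (-0.14), Herc6 (-0.018) and Ifi35 (-0.087) joined Lgals9 below 0. Under that scaling the median of all genes itself moved to -0.13, and the set's median lay 0.58 above it, as it did under the 75th percentile. Both EnhDel arrays lay above both control arrays for 30 of the 37 genes, a pattern found for 28.6% of all genes, and both lay below for 0, against 15.5% of all genes.

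None of these differences passed the test. The adjusted p (limma, Benjamini-Hochberg over all 19391 genes) ran from 0.253 for Lgals3bp to 0.930 for Samhd1, and 0 genes of the whole table passed 0.05 (0%), with a lowest adjusted p of 0.0503. At an unadjusted p under 0.05, 17 of the 37 genes were higher and 0 lower, where 7.25% of all genes were higher and 2173 genes passed in either direction. A difference of at least 2-fold was seen for 8 of the 37 (Ifit1, Ifit2, Ifit3, Rsad2, Zbp1, Ifih1, Ifi44 and Rtp4) and for 3.35% of all genes. The gap between the control arrays was larger than the difference between groups in 4 of the 37, and in 6572 of all 19391 genes. The gap between the EnhDel arrays was larger in 11 of the 37, and in 12762 of all genes. In RNA from a sorted pool of cells, a change in the share of cells that carry these transcripts and a change in RNA per cell cannot be told apart.

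**Figure D1:**
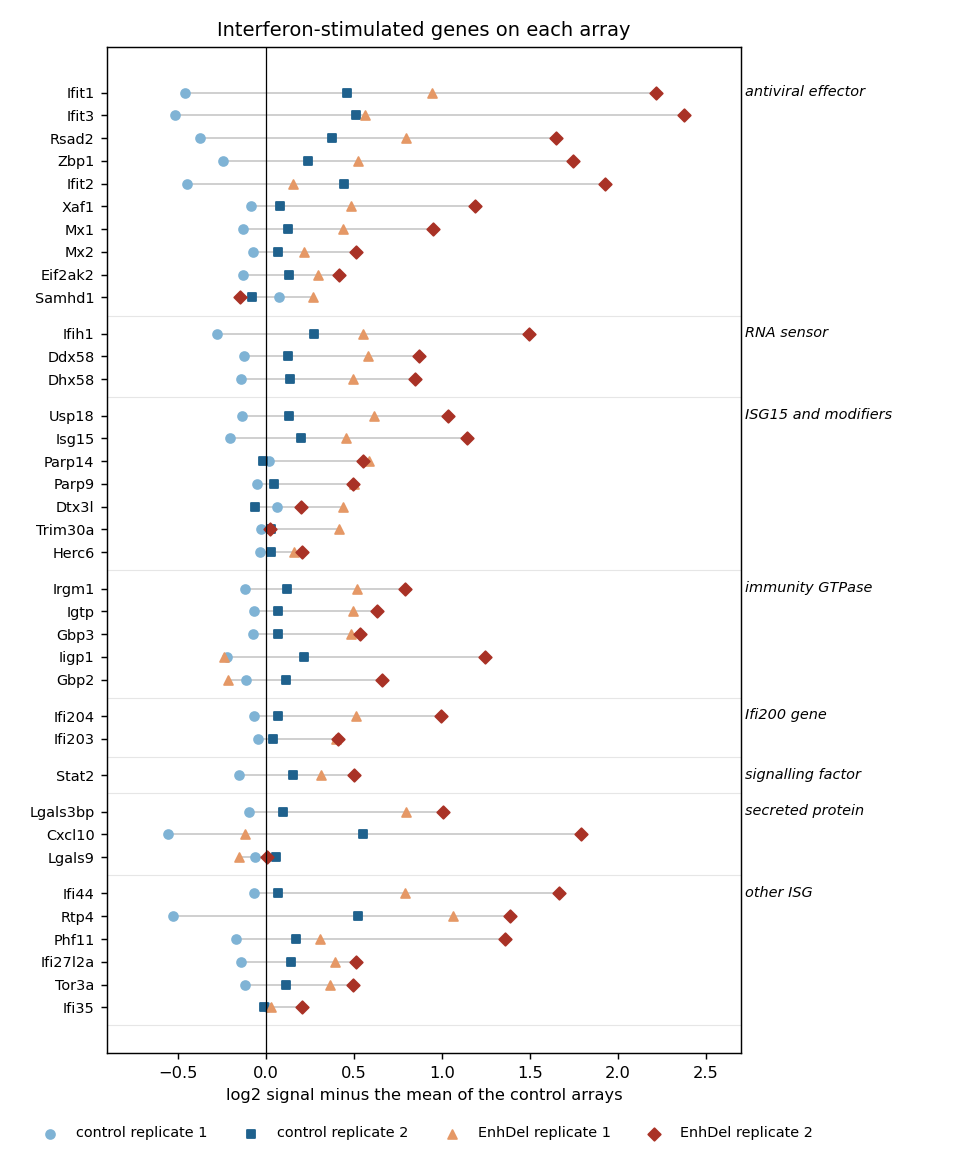
Log2 signal of each of the 37 genes on each array minus the mean of the 2 control arrays (x axis), with genes ordered by role and the points of a gene joined by a grey line. For 30 genes both EnhDel symbols (triangle and diamond) lie to the right of both control symbols (circle and square), and EnhDel replicate 2 is the furthest right in 31.

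The antiviral effectors, proteins that act on viral RNA or on the infected cell, had the highest median difference of the roles, 0.94 over 10 genes. Set against the control mean, replicate 1 of the EnhDel group gave a median of 0.46 and replicate 2 of 1.42. Without replicate 2 the RNA sensors, at 0.55, had the highest median in place of the effectors. Both EnhDel arrays lay above both control arrays for 8 of the 10 (28.6% of all genes). Ifit1, which binds viral RNA lacking the host's cap methylation, was at -4.37 and -3.45 on the control arrays and at -2.97 and -1.69 on the EnhDel arrays. The 4 arrays did not overlap by group, and the difference was 1.58 ± 0.55, or 3.00-fold (adjusted p = 0.424, limma). Its probe lies at chr19:34723796-34723855 of build mm9, the build of all probe positions here, and it was the dimmest gene of the set, at the percentile 28.6 of all tested levels. Ifit3, a partner of Ifit1, was at -3.24, -2.22, -2.16 and -0.35 in the same order, a difference of 1.47 ± 0.72 that rests largely on EnhDel replicate 2, since replicate 1 exceeded control replicate 2 by 0.05. Ifit2, which also binds RNA and limits translation, was at -2.84 and -1.95 on the control arrays and at -2.24 and -0.46 on the EnhDel arrays. Here the groups overlapped, because EnhDel replicate 1 lay below control replicate 2, and the difference of 1.04 ± 0.69 fell short of the gap of 1.77 between the EnhDel arrays.

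Rsad2 (viperin), a radical enzyme that makes a chain-terminating nucleotide, was at -1.98 and -1.22 on the control arrays and at -0.80 and 0.05 on the EnhDel arrays. Its difference was 1.22 ± 0.41, or 2.34-fold, with no overlap (adjusted p = 0.410, limma). Zbp1, a sensor of Z-form nucleic acid that can trigger necroptosis, was at -2.15, -1.67, -1.38 and -0.16, a difference of 1.14 ± 0.47. Both genes had each EnhDel array above each control array, with replicate 2 the brighter by 0.85 for Rsad2 and by 1.22 for Zbp1. On a dimmer probe for Zbp1 the groups overlapped, with a difference of 0.73. In the authors' deposited log2 values, control replicate 2 and EnhDel replicate 1 were both at 8.2 for Zbp1. Xaf1, which counters the apoptosis inhibitor XIAP, was at -0.22 and -0.05 on the control arrays and at 0.35 and 1.05 on the EnhDel arrays, a difference of 0.84 ± 0.28.

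The Mx genes encode dynamin-like GTPases that trap viral nucleoproteins, and the Mx1 allele of C57BL/6 mice is known not to give a working protein. Mx1 was at 1.94 and 2.19 on the control arrays and at 2.50 and 3.02 on the EnhDel arrays, a difference of 0.69 ± 0.24 (1.62-fold). Mx2 was at 1.23, 1.38, 1.52 and 1.81, a difference of 0.36 ± 0.18. Both kept the groups apart, with Mx2 the closer, at 0.15 between control replicate 2 and EnhDel replicate 1. Eif2ak2 (PKR), the kinase that stops translation on sensing double-stranded RNA, ran from 0.33 and 0.59 to 0.76 and 0.88, a difference of 0.36 ± 0.17. Samhd1, which degrades the nucleotides that retroviruses need, was bright on every array (4.44, 4.29, 4.64 and 4.22). Its groups overlapped, with the lowest level on EnhDel replicate 2, and its difference of 0.06 ± 0.21 was within the gap between the control arrays.

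**Figure D2:**
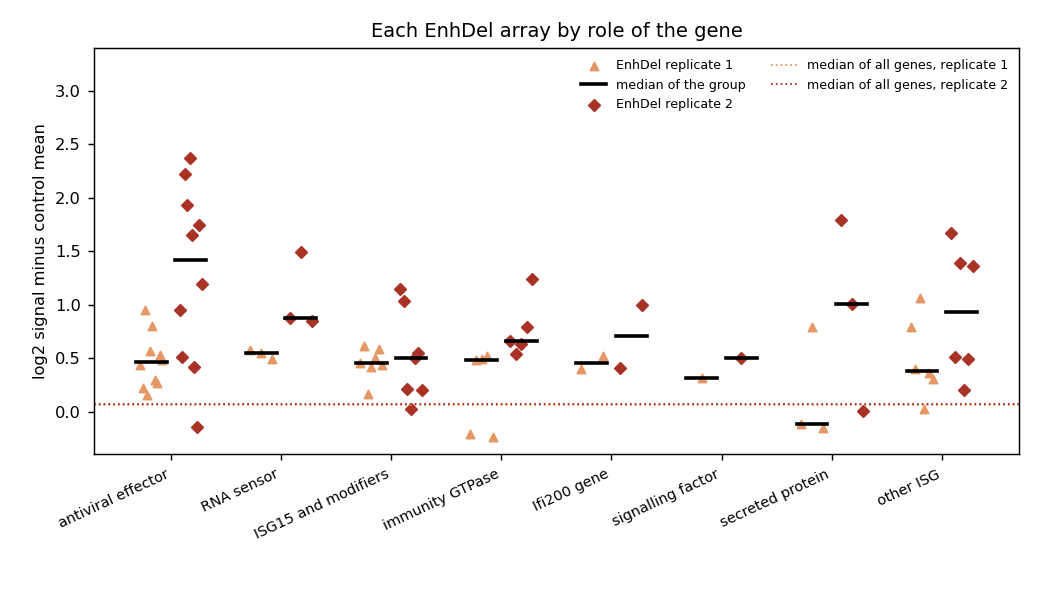
Log2 signal minus the control mean (y axis) for EnhDel replicate 1 (triangles) and EnhDel replicate 2 (diamonds), by the role of the gene (x axis); black bars are medians and dotted lines the medians of all genes tested. The medians of the arrays are far apart for the antiviral effectors, 0.46 against 1.42, and for the 3 secreted proteins, -0.12 against 1.00, and close for the ISG15 group, 0.46 against 0.50.

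All 3 RNA sensors of the cytoplasm were higher on both EnhDel arrays than on both control arrays (28.6% of all genes), with a median difference of 0.73. Ifih1 (MDA5), which detects long double-stranded RNA such as pIpC, was at -1.05 and -0.50 on the control arrays and at -0.22 and 0.72 on the EnhDel arrays, a difference of 1.02 ± 0.40 (2.03-fold; adjusted p = 0.459, limma). Ddx58 (RIG-I), which detects short RNA with a triphosphate end, was at -1.89, -1.64, -1.18 and -0.89, a difference of 0.73 ± 0.19. Dhx58 (LGP2), which lacks their signalling domain and tunes the pair, was at -0.39, -0.11, 0.25 and 0.60, a difference of 0.67 ± 0.21. In all 3 the arrays kept the same order, from control replicate 1 through control replicate 2 and EnhDel replicate 1 to EnhDel replicate 2 (9.07% of all genes). Without EnhDel replicate 2 the differences were 0.55 for Ifih1, 0.58 for Ddx58 and 0.50 for Dhx58.

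Among the 7 genes of ISG15 conjugation, ubiquitin and ADP-ribose, the median difference was 0.50 and 6 had both EnhDel arrays above both control arrays (28.6% of all genes). Isg15, the ubiquitin-like tag, was at 2.64 and 3.05 on the control arrays and at 3.30 and 3.99 on the EnhDel arrays, a difference of 0.80 ± 0.31 (1.74-fold; adjusted p = 0.453, limma). Usp18, the protease that removes ISG15 and also blocks signalling at IFNAR2, was at 1.48, 1.75, 2.23 and 2.65, a difference of 0.82 ± 0.22 (1.77-fold; adjusted p = 0.344). Herc6, the main ISG15 ligase of the mouse, was at -1.10, -1.04, -0.91 and -0.86, a difference of 0.19 ± 0.15. The tag and the enzyme that removes it thus differed by about the same amount and the ligase by less, although a further probe for Herc6 gave 0.56.

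In the ADP-ribose genes the EnhDel arrays lay close together. Parp14, a mono-ADP-ribosyl transferase, was at 2.60 and 2.57 on the control arrays and at 3.18 and 3.14 on the EnhDel arrays, a difference of 0.57 ± 0.15 with an adjusted p of 0.329 (limma). Parp9 was at 2.01, 2.11, 2.56 and 2.56, a difference of 0.50 ± 0.15. Dtx3l, the ubiquitin ligase that pairs with Parp9, was at 2.22, 2.09, 2.59 and 2.36, a difference of 0.32 ± 0.17. These 3 genes were the same or brighter on EnhDel replicate 1, so their difference does not rest on replicate 2. Trim30a, a ubiquitin ligase that dampens NF-kappaB signalling, had signals of 11268 and 13109 on the control arrays and of 14470 and 11942 on the EnhDel arrays. The groups overlapped for Trim30a (log2 difference 0.22 ± 0.20), with EnhDel replicate 1 the brightest.

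The immunity GTPases, which gather on the membranes around pathogens and respond to interferon-gamma as well as to type I interferon, divided into 3 genes that kept the groups apart and 2 that did not. Of all genes, 28.6% had both EnhDel arrays above both control arrays. Irgm1, a regulator of the family, was at 1.92 and 2.16 on the control arrays and at 2.56 and 2.83 on the EnhDel arrays, a difference of 0.65 ± 0.19 (1.57-fold). Igtp (Irgm3) was at 1.99, 2.12, 2.55 and 2.69, a difference of 0.56 ± 0.16, and Gbp3 at -0.31, -0.17, 0.24 and 0.30, a difference of 0.51 ± 0.15. For these 3, the arrays of a group lay within 0.27 of each other. Iigp1 (Irga6) was at -0.03 and 0.41 on the control arrays and at -0.05 and 1.43 on the EnhDel arrays. Gbp2 was at -2.46, -2.23, -2.56 and -1.68. Both were lowest on EnhDel replicate 1 and highest on EnhDel replicate 2, so that the sign of their differences, 0.50 ± 0.54 and 0.22 ± 0.34, turns to -0.24 and -0.21 without replicate 2. On a dimmer probe for Iigp1 control replicate 1 was the lowest, at -3.24 against -2.79 on EnhDel replicate 1. It was also the lowest for Iigp1 in the authors' deposited log2 values, at 8.5 against 8.7.

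The Ifi200 genes encode proteins with a domain that binds DNA, and Ifi204 is a sensor of DNA in the cell. Ifi204 was at 2.99 and 3.12 on the control arrays and at 3.57 and 4.05 on the EnhDel arrays, a difference of 0.75 ± 0.22 (1.69-fold). Ifi203 had signals of 14518, 17184, 18607 and 20276, a log2 difference of 0.41 ± 0.15. Neither overlapped between groups on the brightest probe, which was used here. On a dimmer probe of each the groups did overlap. EnhDel replicate 1 lay below control replicate 2 there, at -1.48 against -1.41 for Ifi204 and -3.77 against -3.68 for Ifi203. Genes of this family are also much alike, and their probes may share signal. Stat2, the one signalling factor of the set and part of ISGF3, was at 4.32, 4.63, 4.79 and 4.97. Its difference of 0.41 ± 0.19 kept the groups apart by 0.16, about the same as the gap between the EnhDel arrays (0.19).

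The 3 secreted proteins behaved unlike each other. Lgals3bp, a glycoprotein that binds galectins, was at 2.93 and 3.13 on the control arrays and at 3.82 and 4.03 on the EnhDel arrays, the gene of the set with the smallest p (difference 0.90 ± 0.17, 1.87-fold, adjusted p = 0.253 by limma). Cxcl10, a chemokine that draws CXCR3-bearing lymphocytes, was at -3.96, -2.85, -3.52 and -1.61. Its arrays spread by 1.11 within the control group and by 1.91 within the EnhDel group, both more than the difference of 0.84 ± 0.76, which turns to -0.12 without EnhDel replicate 2. Lgals9 (galectin-9) was at 0.78, 0.90, 0.69 and 0.85, the one gene of the set with a difference below 0, at -0.07 ± 0.16.

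Of the 6 remaining genes, whose work is less well defined, all kept both EnhDel arrays above both control arrays (28.6% of all genes), with a median difference of 0.64. Ifi44 was at 0.59 and 0.72 on the control arrays and at 1.45 and 2.32 on the EnhDel arrays, a difference of 1.23 ± 0.33 (2.34-fold; adjusted p = 0.347, limma). Rtp4, a chaperone of membrane receptors, was at -2.61, -1.57, -1.03 and -0.70, a difference of 1.23 ± 0.40. Ifi44 showed close control arrays and spread EnhDel arrays, whereas Rtp4 showed the reverse, with a gap of 1.05 between the control arrays and of 0.32 between the EnhDel arrays. Phf11, a PHD finger protein whose probe carries a RefSeq accession now named Phf11a and has close relatives, was at 1.41, 1.74, 1.88 and 2.93 (0.83 ± 0.40). Ifi27l2a, a small protein of mitochondria and the brightest gene of the set, was at 5.50, 5.78, 6.03 and 6.15 (0.45 ± 0.18). Tor3a, an ATPase of the endoplasmic reticulum, was at 1.96, 2.19, 2.44 and 2.57 (0.43 ± 0.17), and Ifi35 at 2.14, 2.13, 2.16 and 2.34 (0.12 ± 0.16), where EnhDel replicate 1 lay next to the control arrays.

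The arrays of each group also differed from each other across the set, and in a regular order. EnhDel replicate 2 was the highest of the 4 arrays in 31 of the 37 genes (40.9% of all genes) and control replicate 1 the lowest in 30 (20.4%). The full order, control replicate 1, control replicate 2, EnhDel replicate 1, EnhDel replicate 2, held in 26 of the 37 genes and in 9.07% of all genes. Control replicate 2 exceeded control replicate 1 in 33 of the 37 (42.4% of all genes), with a median gap of 0.24, and EnhDel replicate 2 exceeded replicate 1 in 32 (48.7% of all genes), with a median gap of 0.29. The step between the groups, EnhDel replicate 1 over control replicate 2, was positive in 32 of the 37 (63.5% of all genes), with a median of 0.35. Control replicate 1, at the low end, came from the older mouse, and EnhDel replicate 2, at the high end, was the array with Xist signal, and the part of either in the order was not tested.

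Genes that were far apart on the control arrays were also far apart on the EnhDel arrays. Over the 37 genes the gap within the control pair and the gap within the EnhDel pair had a Pearson r of 0.79 (Spearman rho 0.78), as a description over genes that share the same 4 arrays, and over all genes r was -0.02. Cxcl10, Ifit1, Ifit2, Ifit3, Rsad2, Ifih1 and Rtp4, picked after their values were seen, had a control gap of at least 0.5. At the other end, 9 genes had EnhDel arrays within 0.15 of each other (Eif2ak2, Herc6, Parp9, Parp14, Gbp3, Igtp, Ifi203, Ifi27l2a and Tor3a), with a median difference of 0.45, while the 25 genes with EnhDel replicate 2 at least 0.15 above replicate 1 had a median of 0.82. Brighter genes tended to have smaller differences, with r of -0.55 between level and difference over the 37 genes and of -0.30 over all genes.

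**Figure D3:**
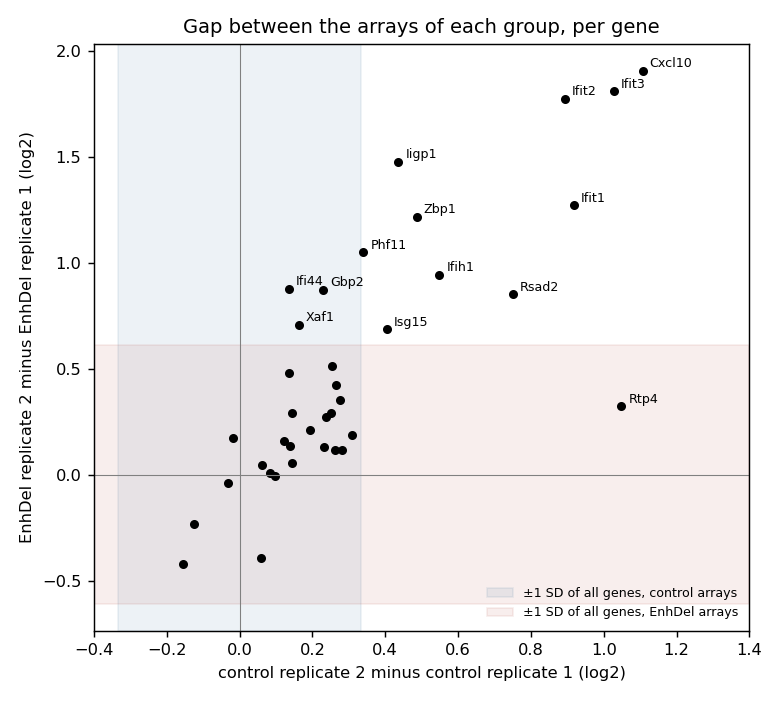
Log2 gap between the control arrays (x axis, replicate 2 minus replicate 1) and between the EnhDel arrays (y axis, replicate 2 minus replicate 1), 1 point per gene for the 37 genes; the shaded bands show 1 SD of the same gap over all genes tested, 0.333 and 0.611. Most points lie above 0 on both axes, and Cxcl10, Ifit3, Ifit2 and Ifit1 lie outside both bands.

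The direction was the same with either EnhDel array alone, and the size was smaller with replicate 1. With EnhDel replicate 1 alone against the control arrays, 33 of the 37 genes were above the control mean, as were 11905 of all 19391 genes. The median was 0.46, where all genes had 0.06. With EnhDel replicate 2 alone, 36 of the 37 were above the control mean, as were 10791 of all genes. The median was 0.85, where all genes had 0.07. Without control replicate 1, the older mouse, the median was 0.53. Without EnhDel replicate 1, 8 of the 37 passed an adjusted p of 0.05 (limma), all higher, against 15.2% of all genes in either direction and 9.9% as higher: Mx1, Zbp1, Xaf1, Usp18, Ifi204, Lgals3bp, Ifi44 and Phf11, with differences from 0.95 for Mx1 to 1.74 for Zbp1. That fit has 1 EnhDel array, which is taken to vary as the control arrays do. Without EnhDel replicate 2, 0 of the 37 passed, against 0.098% of all genes that passed as higher.

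Genes with and without the ISRE core in the promoter had similar values. The 16 tested genes with the core had a median difference of 0.61, and the 8 without it, among those with a promoter in the table, had 0.58. Ifi44, Lgals3bp, Xaf1 and Ifit2 were among the 8 without the core in this window, and Lgals9, the gene with a difference below 0, had it. Of the 13 genes that had more than 1 tested probe, 0 had probes of opposite sign, and the range between a gene's probes was 0.03 for Ddx58 and at most 0.42, for Ifi204. Whether the groups overlapped did depend on the probe for Ifi203, Ifi204, Zbp1 and Samhd1.

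Lists of other genes of the pathway had smaller median differences. The 14 genes of the receptors and JAK-STAT signalling, which include Stat2, had a median difference of 0.09, and 2 were higher at an unadjusted p under 0.05 (7.25% of all genes) and 0 lower. These were Socs3 (1.17 ± 0.16) and Socs1 (0.93 ± 0.24), inhibitors of cytokine signalling that STAT proteins induce, with adjusted p of 0.195 and 0.332 (limma). Socs3 was at 0.80 and 0.63 on the control arrays and at 1.85 and 1.93 on the EnhDel arrays, the clearest separation of the list. Of the receptor chains, Ifnar1 had a difference of -0.32 ± 0.24 and Ifnar2 of 0.01 ± 0.16, and Irf9, the DNA-binding part of ISGF3, had 0.09 ± 0.16.

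Among the 8 interferon regulatory factors the median was 0.14, with 0 at an unadjusted p under 0.05. Irf7, the factor that amplifies interferon-alpha transcription and is itself a target of ISGF3, was at 1.23 and 1.60 on the control arrays and at 1.86 and 3.37 on the EnhDel arrays (1.20 ± 0.55, adjusted p = 0.509 by limma). It followed the order of arrays of the listed targets, with most of its difference on EnhDel replicate 2. Irf5 had 0.36 ± 0.19 and Irf1 0.25 ± 0.15. The 10 tested genes of nucleic acid sensing had a median of 0.14, with Tlr7, the endosomal receptor of single-stranded RNA, at 0.52 ± 0.19, Tlr9 at 0.43 ± 0.24 and the adaptor Ticam1 at 0.28 ± 0.16. Tlr3, a receptor of double-stranded RNA, was well above background on no array.

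The interferon genes themselves were dim. Of 14 on the array 9 were tested, and Ifng, Ifna4 and Ifne were well above background on no array. The 9 had a median difference of 0.44, of which EnhDel replicate 1 showed 0.06 and EnhDel replicate 2 0.83. Ifna12 had 0.69 ± 0.39 and Ifna1 0.38 ± 0.22. Ifna11 was well above background on the EnhDel arrays alone, with signals of 18.4 and 15.4 there and of 13.1 and 13.5 on the control arrays. It entered the test only through the group where it was higher, so its difference was not measured. The median of the 9 is the value of Ifna11 and has the same limit. The interferon-alpha genes are near-identical copies, so their probes may read one another, and 0 of the 9 passed an unadjusted p of 0.05.

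**Figure D4:**
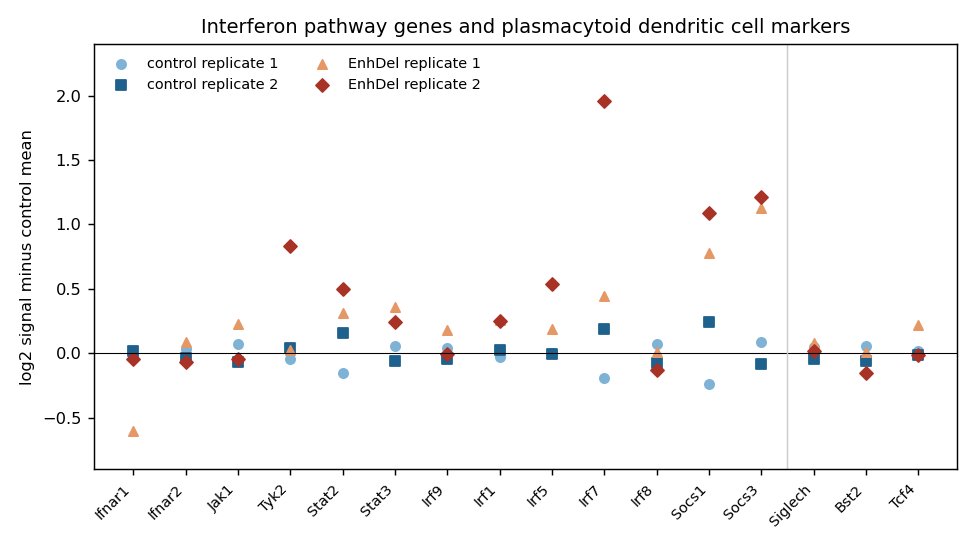
Log2 signal minus the control mean (y axis) on each of the 4 arrays for genes of interferon signalling and, right of the grey line, 3 markers of plasmacytoid dendritic cells (x axis). Socs1 and Socs3 have both EnhDel arrays above both control arrays, Irf7 stands out on EnhDel replicate 2, and Ifnar2, Irf9, Siglech and Tcf4 stay near 0.

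The sort gate can hold cells other than preproB cells, and their markers were read beside these values. Of the gate and preproB genes, 11 of 12 were tested and Enpep (BP1) was well above background on no array, which is what the gate selects for. Cd24a, the gene of the other marker the gate selects against, was well above background on all 4 arrays, with signals of 4779 and 6366 on the control arrays and of 4386 and 1910 on the EnhDel arrays. The 3 with the smallest p were all lower on the EnhDel arrays, at unadjusted p under 0.05 alone: Ebf1, a factor of B-cell commitment (-2.34 ± 0.53), Cd93 (-2.00 ± 0.46) and Cd79a (-0.79 ± 0.20). Plasmacytoid dendritic cells carry B220 and make interferon, and their markers were bright: all 13 were tested, their summed level (signal over the 75th percentile, added over the list) was 813 to 876 on the control arrays and 859 to 902 on the EnhDel arrays, and Siglech differed by 0.05 ± 0.15. The sums of the groups overlapped. Of the list's genes with the smallest p, Il3ra had -0.42 ± 0.17, Ccr9 0.42 ± 0.19 and Klk1 0.76 ± 0.40.

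Markers of other cells differed between the groups in both directions, with 0 of them past an adjusted p of 0.05. Monocyte and macrophage markers (10 of 12 on the array tested) had a median of -1.98 and sums of 20.9 to 24.4 on the control arrays against 12.6 to 17.7 on the EnhDel arrays. Cx3cr1 had -4.72 ± 0.47 and Ms4a6c -2.32 ± 0.20, and on the EnhDel arrays Fn1 did not reach the well-above-background call. Fn1, Lyz2 and Adgre1 entered the test only through the control arrays, where their mean was higher, so the filter partly set this median. T cell markers (10 of 12) had a median of 0.34 and sums of 15.4 to 18.0 against 26.0 to 35.8, with Cd4 at 1.29 ± 0.33, Cd3d at 1.17 ± 0.32 and Cd3g at 1.06 ± 0.14, and with Themis above background on no array. Cd4 alone made up 8.21 to 9.29 of the sums on the control arrays and 28.7 of that on EnhDel replicate 2. Without it the sums of the groups overlapped, with 7.21 and 8.75 on the control arrays and 7.12 on EnhDel replicate 2, and Lck had -0.49 ± 0.50. NK cell markers (11 of 12) had a median of 0.71 and sums of 15.4 to 17.7 against 14.8 to 17.8, with Xcl1 at 2.31 ± 0.25 and Eomes at 1.30 ± 0.17 but Klrk1 at -1.24 ± 0.17, Klrb1c at -0.57 ± 0.60 and Klrd1 at -0.18 ± 0.21, and with Gzmb not well above background on the control arrays. Klrd1, at 3.95 and 3.77 on the control arrays and at 3.88 and 3.47 on the EnhDel arrays, made up most of these sums. Their overlap thus mostly follows Klrd1. Gzmb entered the test only through the EnhDel arrays and Klrb1c only through the control arrays, in each case where it was higher. Neutrophil markers (9 of 12) had a median of -1.05 and sums of 109 to 115 against 78.1 to 119, with Mpo at -2.90 ± 1.24, Elane at -1.05 ± 0.34 and Lcn2 at 0.83 ± 0.21, and with 3 above background on no array. Csf3r, at 6.48 and 6.51 on the control arrays and at 6.26 and 6.75 on the EnhDel arrays, made up most of these sums. Their overlap thus mostly follows Csf3r. S100a8 entered the test only through the control arrays, where it was higher. Erythroid markers (7 of 8) had sums of 0.286 to 0.798 on the control arrays against 1.53 to 1.74 on the EnhDel arrays. Both EnhDel arrays lay above both control arrays for all 7, a pattern found for 28.6% of all genes. Klf1, Epor, Alas2 and Slc4a1 entered the test only through the EnhDel arrays, where they were higher. The count of 7 was thus partly set by the filter, as was the median difference of 2.05, the value of Epor. Slc4a1 and Alas2 were well above background on 3 arrays. Hba-a1, a globin, had signals of 196, 647, 669 and 1188, in the array order of most interferon-stimulated genes. That order held in 2 of the 7 erythroid genes (9.07% of all genes). EnhDel replicate 2 exceeded EnhDel replicate 1 in 2 of the 7 (48.7% of all genes). Klf1 and Epor were not well above background on the control arrays. The part of these cells in the values of the interferon-stimulated genes was not tested.

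The size of the shift changed with the processing more than its direction did. The median of the 37 genes ran from 0.45 under median scaling to 0.69 with the mean of a gene's probes when all 4 arrays were kept, and it exceeded the median of all genes by at least 0.27 in every setting tried. The lowest of those gaps came from normexp background correction, where the median of all genes was 0.19 and 18 of the 37 genes, in place of 30, kept both EnhDel arrays above both control arrays, a pattern that 35.5% of all genes had there. With the local background of 6 bright-background spots on EnhDel replicate 1 repaired, normexp gave 30 again (29.3% of all genes). The authors' deposited table of log2 values gave a median of 0.55 and 27 of the 37 genes with both EnhDel values above both control values, against 12.5% of all genes.

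**Figure D5:**
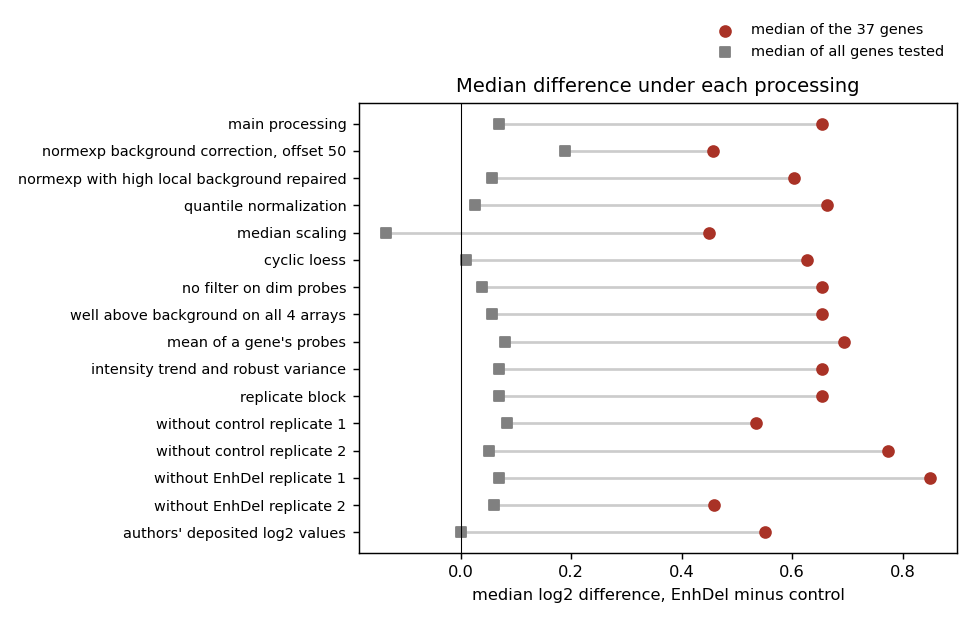
Median log2 difference, EnhDel minus control (x axis), of the 37 genes (circles) and of all genes tested (squares) under each processing (y axis). The circle lies to the right of the square in every setting, from 0.27 apart under normexp to 0.78 apart without EnhDel replicate 1.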

How the data were processed

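Sorted bone marrow preproB cells, 4 mouse samples, were profiled on 1-colour arrays that shared 1 slide. The authors' scanner output, in intensity units, was made with Agilent Feature Extraction 10.7.3.1, which subtracted background and detrended the processed signal, and gives probe positions in mm9, per the file headers. The authors also deposited a log2 table of 31597 rows with 1 decimal, and how it was made is not given in the sources used here. Per the labels' protocols, RNA was amplified linearly.

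Control spots and 126 to 162 flagged spots per array were left out. The log2 processed signal minus the array's 75th percentile was averaged over a probe's spots. Probes well above background on both arrays of a group were kept (24286), and a gene took its brightest probe. Of 39429 probes, 26581 matched the RefSeq table of GRCm38.p6 by accession, used for names. Groups were compared with limma 3.58.1 in R 4.3.3 on all genes, with Benjamini-Hochberg adjustment at 0.05; the fit was tested on simulated data. All listed genes were named, and from each pathway or marker list the 3 with the smallest p plus Irf7, Irf9, Ifnar1 and Ifnar2. Alternatives were other background corrections, scalings, filters and probe rules, a trended variance, the replicate block, each array left out and the authors' values. 1 gene that the rule takes is not reported here and was left out of its list. The genes and lists were chosen with earlier results of these data known.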

Additional observations from a re-analysis of the deposited data

How the results depend on the processing

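Of 19391 genes, 0 passed an adjusted p of 0.05 (limma). The count was also 0 under both forms of normexp, quantile normalization, cyclic loess, either change of the filter, the trended variance, the replicate block and the authors' deposited values (3020 at an unadjusted p under 0.05), but 23 under median scaling (3 higher, 20 lower) and 2 with the mean of a gene's probes. Leaving out 1 array gave 1 to 2953 genes: 1 without control replicate 1, 7 without control replicate 2, 2953 without EnhDel replicate 1 and 46 without EnhDel replicate 2. The cause was not tested. Leaving out 1 array leaves a group of 1, which is taken to vary like the other group. Of the 37 genes, 0 to 8 passed with 1 array left out, the 8 without EnhDel replicate 1, and 0 under every other alternative run. Their median ran from 0.46 to 0.85 with 1 array left out, and 30 to 34 had both EnhDel values above both control values, where 36.1% to 50.2% of all genes did. Under normexp 18 did (35.5% of all genes), and with the local background of the 6 spots repaired 30 did (29.3% of all genes).

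The sign held in all 15 alternatives for 29 of the 37 genes. It turned under normexp for Samhd1 (-0.27), Trim30a (-0.056) and Ifi35 (-0.12), and under median scaling for Samhd1 (-0.14), Herc6 (-0.018) and Ifi35 (-0.087). With 1 array left out, Samhd1 ran from -0.15 to 0.27 and turned without control replicate 2 or EnhDel replicate 1, and Lgals9 ran from -0.15 to 0.0083 and turned without EnhDel replicate 1. Without EnhDel replicate 2, Gbp2 (-0.21 to 0.66 over the arrays left out), Iigp1 (-0.24 to 1.24) and Cxcl10 (-0.12 to 1.79) turned.

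The labels number the replicates of both groups, but same-numbered arrays did not deviate together (r of -0.02 over all genes), so the numbers were not taken to pair the samples. With the replicate block, 0 genes passed and 1943 had an unadjusted p under 0.05, against 2173 without it. Signals under 12.2 to 14.4, the lowest well above background on the arrays, could not be measured.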
